A study of Mus musculus with 20 samples.

Results

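The 4 Fc gamma receptor genes of the mouse, Fcgr1, Fcgr2b, Fcgr3 and Fcgr4, and Fcer1g, the chain that the activating ones need, were described as 5 genes out of the 54532 genes of both deposited count tables. They were chosen by gene name. Each name occurred once, and no other gene name began with Fcgr and a digit. All 5 passed the filter on low counts in every fit. Their levels were followed through the tissue series of a mouse model of colorectal liver metastasis (CRLM) and in cells selected from the metastases.

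The Fc gamma receptors are the cell-surface proteins with which myeloid cells read IgG bound to a target. In the mouse, Fcgr1 (the high-affinity receptor), Fcgr3 and Fcgr4 activate the cell, and they do so through Fcer1g, the common gamma chain, which holds them at the membrane and carries their ITAM, a signaling motif with a pair of tyrosines. Fcgr2b is the inhibitory receptor of the family, with an ITIM, a motif of a single tyrosine, in its own tail, and in the liver it is also carried by the sinusoidal endothelium, which clears small immune complexes from blood. The balance of the activating receptors to Fcgr2b is known to set how strongly a macrophage answers immune complexes.

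RNA-Sequencing covered 20 libraries from young adult wild-type (WT) C57BL/6 mice. Normal liver (con, 2 libraries) came from mice given normal saline, at day 0. All other groups came from mice injected through the spleen with 1000000 MC38 cells, a mouse colon adenocarcinoma line of the same strain. These were liver remote from the tumor at day 12 (L-con, 1 library), low-content tumor at day 9 (Lt, 2), medium-content tumor at day 9 (Mt3, 2) and in a pair of groups at day 11 (Mt2 and Mt1, 2 each), and high-content tumor at day 12 (Ht, 3). F4/80+ and CD11b+ cells (3 libraries each) were pulled from Mt2 metastases at day 11 with magnetic microbeads, F4/80 being a macrophage surface protein and CD11b one of myeloid cells at large. The metastasis samples were pieces of tissue that held tumor and liver in unequal parts, and their groups differ in both tumor content and day. Each tissue group was made from 2 livers except L-con, and the labels do not say whether the libraries of sorted cells came from separate animals, so their p-values measure only the spread between these samples.

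Libraries held 16032085 to 20548370 counts. The study describes Ht 1 and Ht 3 as identical, and they were summed to 1 sample, so that the tissue series had 13 samples and the metastases (CRLM) 10. The counts of Ht 1 and Ht 3 nevertheless differed by more than sampling noise, with a chi-square per degree of freedom of 27.6. It was 26.7 for Ht 1 and Ht 2 and 12.1 for Ht 2 and Ht 3. The labels give the tissue samples as male while the study's methods name female mice, and in the counts Xist ranged from 0 to 3 in the 14 tissue libraries and from 5547 to 21805 in the 6 sorted libraries, with Ddx3y at 348 to 1421 and at 0. Sex therefore cannot be told apart from the difference between tissue and sorted cells. CD11b+ 3 stood apart from the other sorted libraries, with a TMM factor (the scaling factor for library composition) of 0.838 against 1.02 to 1.05 and 5547 Xist counts against at least 18998. Macrophage markers such as Lyz2 and C1qb were high in both sorted populations, and neutrophil and Kupffer cell markers were present as well, with sums given beside the sorted cells.

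In the genome build of the tables, GRCm38, 4 of the 5 genes lie within a short stretch of chromosome 1 and all are annotated as protein coding. Fcgr2b (ENSMUSG00000026656) spans chr1:170958617-170976547 on the minus strand, Fcgr4 (ENSMUSG00000059089) chr1:171018920-171029761 on the plus strand, Fcgr3 (ENSMUSG00000059498) chr1:171051174-171064935 on the minus strand and Fcer1g (ENSMUSG00000058715) chr1:171229572-171234365 on the minus strand. Fcgr1 (ENSMUSG00000015947) lies apart, at chr3:96282909-96293969 on the minus strand. Fcgr2b overlaps the gene Gm38204 on the opposite strand, Fcgr3 overlaps Mir6546 and Fcgr4 overlaps Gm26110. The sources used here do not state whether counting used strand, so reads of an overlapping gene on the opposite strand could not be told apart.

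The difference between the activating and the inhibitory arm is written in short coding stretches, shown here because they define the roles by which the results are ordered. The ITAM of Fcer1g is encoded by 45 bases (15 codons) of exons 4 and 5, within chr1:171229889-171230072, and the ITIM of Fcgr2b by 30 bases of exon 8, the last, at chr1:170961065-170961094, both from GENCODE M21 transcripts on the minus strand of GRCm38, with tyrosine codons in capitals.
Fcer1g ITAM: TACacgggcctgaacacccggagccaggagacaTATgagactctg
Fcgr2b ITIM: aatacgatcaccTACtcacttctcaagcat

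Fcgr2b and Fcgr3 share part of their coding sequence, which bears on how well their counts can be separated. The longest identical run was 129 bases across exons 3 and 4 of both genes, 102 of them in exon 3, at chr1:170966674-170968081 in Fcgr2b and chr1:171054167-171057792 in Fcgr3. It is shown in capitals with 20 bases of each gene to either side in lower case.
Fcgr2b: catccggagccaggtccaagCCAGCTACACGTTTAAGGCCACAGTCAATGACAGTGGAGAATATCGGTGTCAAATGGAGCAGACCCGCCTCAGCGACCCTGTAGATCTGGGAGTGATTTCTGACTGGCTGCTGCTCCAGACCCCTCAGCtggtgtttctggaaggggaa
Fcgr3: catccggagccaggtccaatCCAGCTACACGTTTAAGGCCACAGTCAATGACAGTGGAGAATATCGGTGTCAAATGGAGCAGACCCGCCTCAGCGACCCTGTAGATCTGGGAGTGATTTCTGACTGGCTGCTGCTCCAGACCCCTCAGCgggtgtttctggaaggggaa
Of all runs of 50 bases in the transcripts, those shared by the pair made up 2.92% of Fcgr2b and 9.58% of Fcgr3, and at 100 bases the shares were 0.753% and 2.54%. No run of 150 bases was shared. Fcgr2b also shared runs of 50 bases with other genes (395 of 5685 runs in all, 6.95%), while Fcgr1, Fcgr4 and Fcer1g shared none. Counts of Fcgr2b and Fcgr3 are therefore uncertain by the reads that fall in these runs, and how the authors' counting treated such reads was not given in the sources used here.

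The 120 bases before the annotated start of each gene are shown because the activating receptors moved together in what follows. They come from RefSeq (GRCm38.p6), in which all 5 genes were matched and whose starts are not all at the ends of the gene spans above. Capitals mark AGAGGAAG on either strand, letters of the kind that the myeloid factor PU.1 (Spi1) binds, and TTCNNNGAA, letters of the kind that STAT factors bind. The letters were chosen after these promoters had been seen.
Fcgr1, chr3:96293970-96294089, minus strand: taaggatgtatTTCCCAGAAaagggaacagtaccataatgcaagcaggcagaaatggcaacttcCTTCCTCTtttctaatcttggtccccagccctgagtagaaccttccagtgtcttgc
Fcgr3, chr1:171059395-171059514, minus strand: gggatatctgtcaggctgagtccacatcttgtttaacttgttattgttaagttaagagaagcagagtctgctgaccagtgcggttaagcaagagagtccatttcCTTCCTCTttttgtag
Fcgr4, chr1:171018806-171018925, plus strand: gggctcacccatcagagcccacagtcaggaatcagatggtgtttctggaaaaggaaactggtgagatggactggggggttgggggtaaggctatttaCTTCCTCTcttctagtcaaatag
Fcer1g, chr1:171234350-171234469, minus strand: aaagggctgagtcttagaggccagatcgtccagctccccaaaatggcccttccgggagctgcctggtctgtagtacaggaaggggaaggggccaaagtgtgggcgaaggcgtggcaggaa
Fcgr2b, chr1:170976072-170976191, minus strand: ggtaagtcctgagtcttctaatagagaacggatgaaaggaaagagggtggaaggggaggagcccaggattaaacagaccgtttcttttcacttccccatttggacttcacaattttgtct
AGAGGAAG was found in the promoters of Fcgr1, Fcgr3 and Fcgr4, starting 56, 16 and 23 bases before the start, and in those of Fcgr2b and Fcer1g there was no match. Of 32851 promoters of 300 bases, 1495 (4.55%) held AGAGGAAG. TTCNNNGAA was found in Fcgr1 only, 109 bases before the start, and in 2726 promoters (8.3%). Fcgr3 has 2 starts in this source. The start at the lower coordinate was used, which on the minus strand lies further downstream, and the other is not shown. The stretches of Fcgr3 and Fcgr2b lie wholly inside the gene spans given above. A match is a description of letters, not of binding.

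Per kilobase, Fcgr2b was the leading receptor in normal liver, and Fcgr3 and Fcgr4 both lay above it in every metastasis sample. Fcgr1, Fcgr3, Fcgr4 and Fcer1g rose from con to CRLM by 4.11 to 12.9 fold, while Fcgr2b was at 1.2 fold and was not called. With scaling to total counts in place of TMM, the log2 fold changes of the former were 4.40 (Fcgr1), 2.75 (Fcgr3), 3.01 (Fcgr4) and 3.69 (Fcer1g), against 3.69, 2.04, 2.31 and 2.98, and that of Fcgr2b was 0.94 against 0.26. That of Fcgr1 was 4.42 without con 1 and 3.19 without con 2. By edgeR's quasi-likelihood test, with p-values adjusted by Benjamini-Hochberg over 17187 genes, 4 of the 5 genes were called higher (a call needed an adjusted p of 0.05 or less and a log2 change of 1 or more in size), beside 20.9% of all genes tested. In all 5 genes every CRLM sample lay above both con samples, as it did in 26.4% of all genes. The median log2 fold change of all genes was 0.07. Because the samples are bulk tissue, more cells of a type and more RNA per cell cannot be told apart in any of these values.

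**Figure D1:**
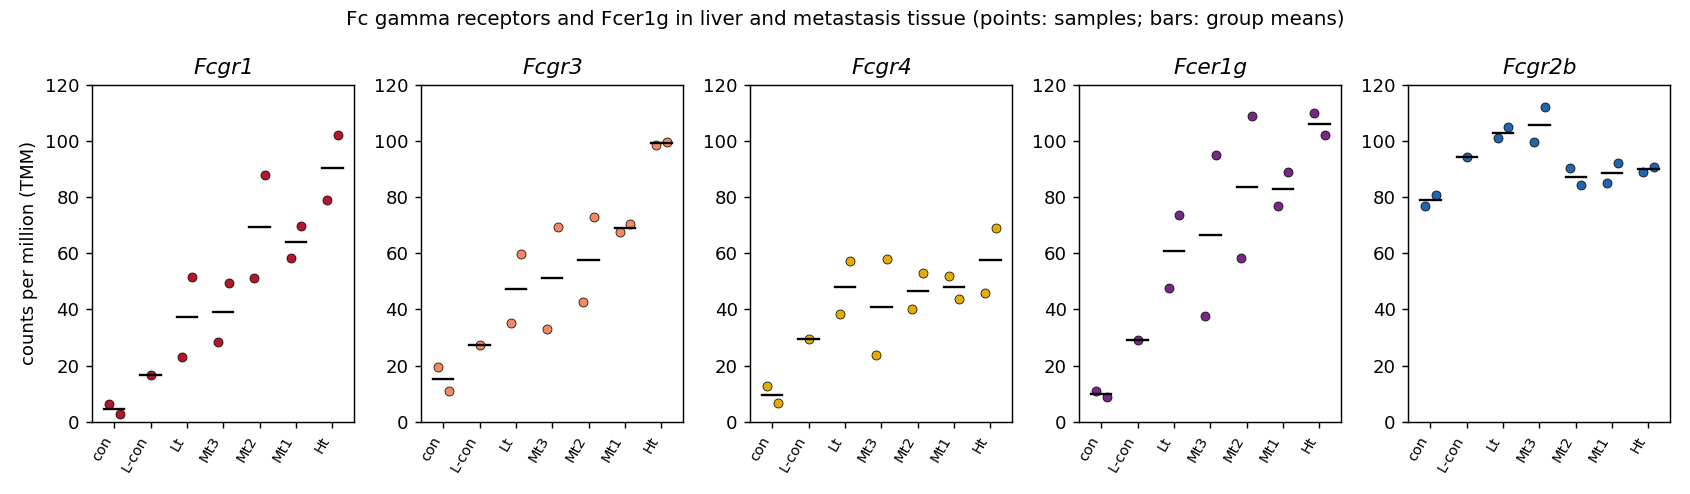
TMM-normalized CPM (linear axis from 0) of the 5 genes in the 13 tissue samples, ordered from normal liver to high-content tumor; points are samples and bars are group means. The con samples of Fcgr1 sit at 2.65 and 6.2 CPM and its Ht samples at 79 and 102, whereas Fcgr2b stays between 77 and 112 in all samples.

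Fcgr1, the high-affinity IgG receptor, had the lowest level per kilobase of the 5 in normal liver. It measured 6.2 and 2.65 CPM (counts per 1000000 reads after TMM scaling) in the con samples and 16.6 in L-con. Lt samples held 22.9 and 51.6 CPM, those of Mt3 28.5 and 49.6, those of Mt2 51.1 and 87.9, those of Mt1 58.5 and 69.6, and those of Ht 79 and 102. The CRLM samples ranged from 22.9 to 102 with a median of 55, clear of con, and L-con lay between. Means were 4.42 ± 2.51 CPM for con (SD, n = 2) and 60.1 ± 25.1 CPM for CRLM (SD, n = 10), and the log2 fold change was 3.69 (SE 0.50, 95% interval 2.56 to 4.81, adjusted p = 0.000571, edgeR). The order of the group means was con, L-con, Lt, Mt3, Mt1, Mt2, Ht, and the samples of Lt overlapped with those of Mt3 and Mt2, and the samples of Mt2 with those of Mt1 and Ht.

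Fcgr3, the low-affinity activating receptor, measured 19.6 and 10.9 CPM in the con samples and 27.4 in L-con. Lt samples held 35 and 59.9 CPM, those of Mt3 33.2 and 69.3, those of Mt2 42.7 and 72.9, those of Mt1 67.5 and 70.5, and those of Ht 98.6 and 99.7. Both Ht samples were the highest of the series, while Lt, Mt3 and Mt2 overlapped and Mt1 lay within the range of Mt2. From 15.2 ± 6.11 CPM in con to 64.9 ± 23.3 in CRLM (range 33.2 to 99.7, median 68.4), the log2 fold change was 2.04 (SE 0.38, 95% interval 1.18 to 2.90, adjusted p = 0.00242).

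Fcgr4, an activating receptor that binds IgG2 subclasses, measured 12.7 and 6.6 CPM in the con samples and 29.3 in L-con. Lt samples held 38.4 and 57.4 CPM, those of Mt3 23.6 and 57.9, those of Mt2 40.3 and 52.9, those of Mt1 52.1 and 43.6, and those of Ht 46 and 68.9. Unlike Fcgr1 and Fcgr3 it showed no order among the metastasis groups, all of which overlapped with Mt3, although the differences between the genes in this respect were not tested. From 9.64 ± 4.27 CPM in con to 48.1 ± 12.6 in CRLM (range 23.6 to 68.9, median 49), the log2 fold change was 2.31 (SE 0.41, 95% interval 1.38 to 3.24, adjusted p = 0.00195).

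Fcer1g, the chain the activating receptors need, measured 10.9 and 8.9 CPM in the con samples and 29.1 in L-con. Lt samples held 47.7 and 73.8 CPM, those of Mt3 37.7 and 95.2, those of Mt2 58.4 and 109, those of Mt1 77 and 88.9, and those of Ht 110 and 102. In each of Mt3 and Mt2, 1 sample lay far above the other, and Mt2 reached into the range of Ht. From 9.91 ± 1.38 CPM in con to 80 ± 25.6 in CRLM (range 37.7 to 110, median 82.9), the log2 fold change was 2.98 (SE 0.42, 95% interval 2.03 to 3.93, adjusted p = 0.000684).

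Fcgr2b, the inhibitory receptor, measured 77 and 80.9 CPM in the con samples and 94.4 in L-con. Lt samples held 101 and 105 CPM, those of Mt3 99.5 and 112, those of Mt2 90.5 and 84.2, those of Mt1 85 and 92.3, and those of Ht 89.1 and 90.9. All metastasis samples lay above con, but by little, and the highest were at day 9. From 79 ± 2.74 CPM in con to 95 ± 9.12 in CRLM (range 84.2 to 112, median 91.6), the log2 fold change was 0.26 (SE 0.11, 95% interval 0.01 to 0.52, adjusted p = 0.0754) and was not called. TMM factors ran from 0.686 in con to 1.6 in Ht. Scaled to total counts alone, Fcgr2b was 0.94 higher in log2 (adjusted p = 0.00465), beside a median of 0.75 over all genes, and its adjusted p ranged from 0.00465 to 0.362 over the alternatives, none of which called it. The 9 tested markers of sinusoidal endothelium, the other carrier of Fcgr2b, moved with a median log2 fold change of -1.37: 7 fell, among them Clec4g (73.1 ± 5.01 to 52.7 ± 45.5 CPM, SD), Ehd3 (139 ± 19.1 to 49.5 ± 35.5) and Lyve1 (68.8 ± 63.4 to 19.1 ± 7.31, with con samples far apart), and none was called higher. Stab1, a scavenger receptor that macrophages also express, went the other way in value, from 117 ± 18.3 to 207 ± 107 CPM (0.67 in log2, adjusted p = 0.0129, edgeR), under the fold change a call needed. Their summed level was 717 to 904 CPM in con and 428 to 455 in Ht, and without Stab1 613 to 774 and 49.5 to 67.6. None of these markers was at 0 in any group, and the part of endothelial RNA in the Fcgr2b level was not tested.

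Per kilobase of gene length, where genes can be compared with each other, Fcgr2b led the 4 receptors in con at 13.6 ± 0.472 CPM per kb, followed by Fcgr3 (8.78 ± 3.52), Fcgr4 (7.67 ± 3.40) and Fcgr1 (1.71 ± 0.97). The order was different in Ht, with Fcgr3 at 57.1 ± 0.434 CPM per kb, Fcgr4 at 45.7 ± 12.9, Fcgr1 at 35 ± 6.39 and Fcgr2b last at 15.5 ± 0.229 (SD, n = 2 each). Fcer1g stood at 11.3 ± 1.58 CPM per kb in con and 121 ± 6.91 in Ht. In con Fcgr3 and Fcgr4 did not differ beyond their spread, and in Ht the gaps from Fcgr4 to Fcgr3 and to Fcgr1 were smaller than the SD of Fcgr4.

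The balance within a library does not depend on the scaling between libraries. The log2 ratio of Fcgr1 to Fcgr2b, in counts per kilobase, was -2.47 and -3.77 in con, -1.35 in L-con, and -0.98 to 1.33 in CRLM (median 0.48). That of Fcer1g to Fcgr2b was -0.09 and -0.45 in con, 1.03 in L-con, and 1.33 to 3.10 in CRLM (median 2.54). For Fcgr3 the ratio was -1.15 and -0.24 in con and 0.15 to 1.88 in CRLM, and for Fcgr4 -1.41 and -0.40 in con and 0.13 to 1.80 in CRLM. All 4 ratios lay above both con samples in 10 of 10 CRLM samples. The mean log2 ratios differed by 3.50 for Fcgr1, 1.80 for Fcgr3, 2.08 for Fcgr4 and 2.68 for Fcer1g. Each had p = 0.0303 by an exact two-sided permutation test, the smallest that 66 arrangements allow, and an adjusted p of 0.0606 over the 8 ratio tests. That is the lowest value these sample numbers allow, so none could pass the threshold of 0.05 after correction.

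**Figure D2:**
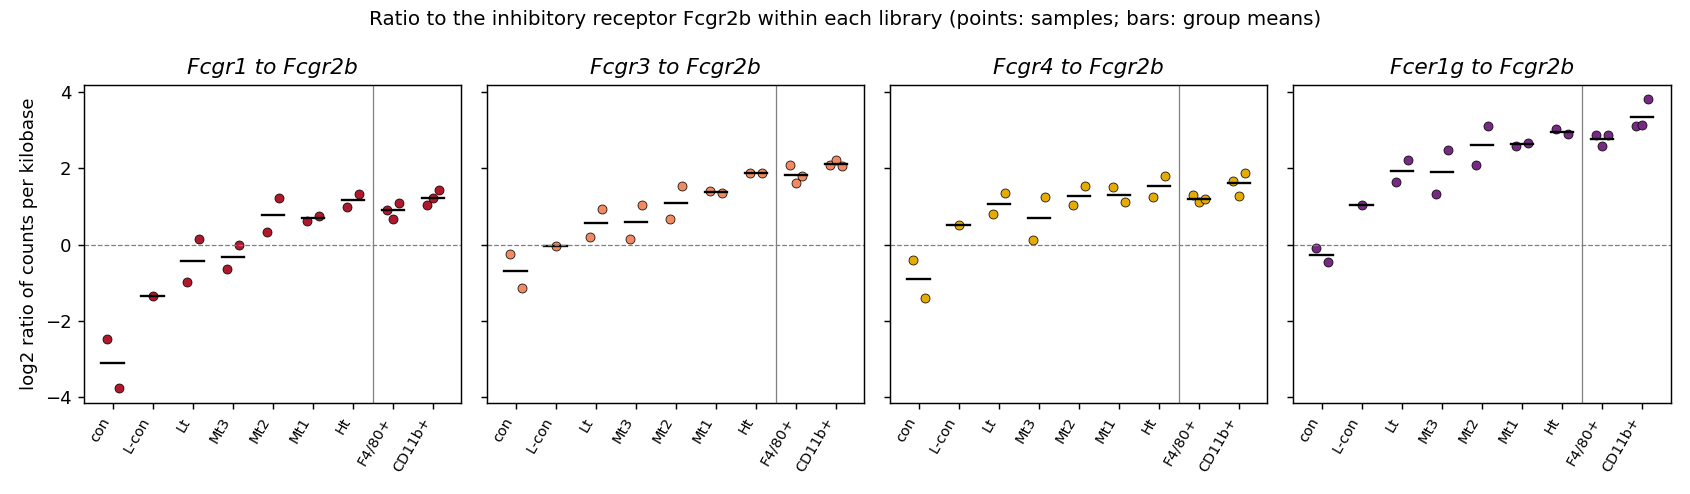
Log2 ratio of Fcgr1, Fcgr3, Fcgr4 and Fcer1g to Fcgr2b, in counts per kilobase, in each tissue sample and, right of the vertical line, each library of sorted cells; points are samples and bars are group means. For Fcgr1 the group means go from -3.12 in con to 1.16 in Ht, beside 0.89 in F4/80+ and 1.23 in CD11b+ cells.

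As a share of the 4 receptors together, in counts per kilobase, Fcgr2b made up 35.9% and 52.6% in con and 26.4% in L-con. Lt samples held 22.7% and 15.3%, those of Mt3 26% and 15.6%, those of Mt2 17% and 11%, those of Mt1 12.5% and 13.5%, and those of Ht 11% and 9.38%. Every metastasis sample thus lay under both con samples. Fcgr1 went from 6.46% and 3.85% in con to between 11.5% and 25.6% in CRLM. Fcgr3 held 30.4% and 23.7% in con and 40.8% and 34.3% in Ht, and Fcgr4 27.2% and 19.8% in con and 26.3% to 39.7% in CRLM, so that the ranges of Fcgr3 and Fcgr4 in CRLM reached into those of con.

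**Figure D3:**
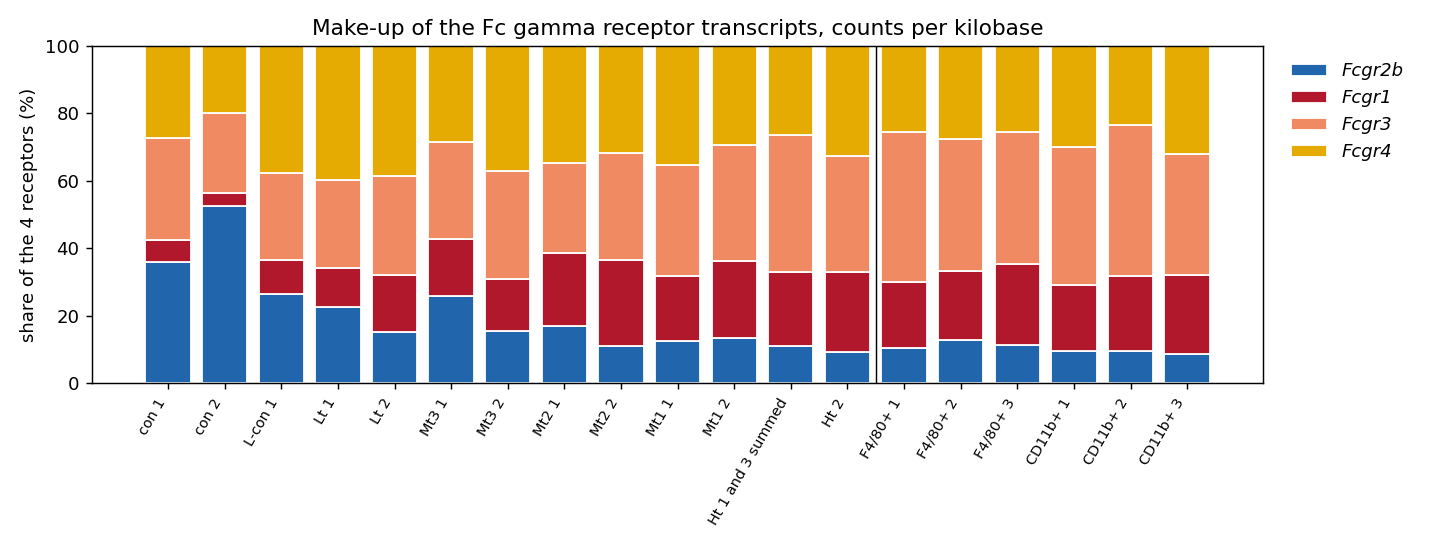
Share of each of the 4 Fc gamma receptors in their sum, in percent of counts per kilobase, stacked for each sample from normal liver to the sorted cells. The part of Fcgr2b shrinks between con (35.9% and 52.6%) and Ht (11% and 9.38%), and that of Fcgr1 grows, with 6.46% and 3.85% in con and at most 23.6% in Ht.

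Low-content tumor was compared with normal liver for the first step of the series. From con to Lt, 4 of the 5 genes were called higher by edgeR, beside 12.4% of all genes: Fcgr1 by 3.08 in log2 (SE 0.54, adjusted p = 0.00592), Fcer1g by 2.62 (SE 0.46, adjusted p = 0.00628), Fcgr4 by 2.32 (SE 0.47, adjusted p = 0.0113) and Fcgr3 by 1.64 (SE 0.43, adjusted p = 0.0353). Fcgr2b had a log2 fold change of 0.38 (SE 0.14, adjusted p = 0.113) and was not called. The calls rest on few samples: 0 of the 5 genes were called without con 2, 2 without Lt 2 and 3 without con 1, though without con 2 or Lt 2 the log2 fold changes of the 4 genes were still between 1.20 and 2.57. The liver remote from the tumor at day 12, with 1 library and no test, lay above both con samples and below both Lt samples in all 5 genes, as it did in 16.5% of all genes. Its Kupffer cell markers summed to 1223 CPM, against 527 to 693 in con and 926 to 972 in Lt.

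From Lt to Ht, 0 of the 5 genes were called by edgeR, beside 31.9% of all genes in either direction, and Fcgr1 and Fcgr3 had unadjusted p-values under 0.05, as did 9143 of 17187 genes. Fcgr1 was 1.28 higher in log2 (95% interval 0.21 to 2.36, adjusted p = 0.0533) and Fcgr3 1.06 higher (0.12 to 2.01, adjusted p = 0.0654). DESeq2 called these 2. With Lt 2 left out edgeR also called both (Fcgr1 1.98 higher, adjusted p = 0.0233, and Fcgr3 with adjusted p = 0.0492), and leaving out Lt 1, Ht 2 or the sample made of Ht 1 and 3 called 0. Fcer1g differed by 0.80 (-0.16 to 1.76, adjusted p = 0.151), Fcgr4 by 0.26 (-0.72 to 1.24, adjusted p = 0.648) and Fcgr2b by -0.19 (-0.51 to 0.13, adjusted p = 0.291). The samples of Lt and Ht overlapped in Fcgr4 and not in the other 4 genes, beside 80.4% of all genes without overlap. Scaled to total counts Fcgr1 (2.12), Fcgr3 (1.92) and Fcer1g (1.67) were called higher. Fcgr2b was then 0.70 higher in Ht, where it was -0.19 with TMM, beside a median of 0.87 over all genes. Over the same step 12 of 12 hepatocyte markers and 7 of 9 sinusoidal markers fell, with 1 sinusoidal marker higher, and 7 of 8 Kupffer cell markers fell, with a median of -2.78. Of the macrophage markers 2 of 13 rose and 1 fell, and of the monocyte markers 2 of 8 rose and 0 fell.

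Among the genes that work with the receptors, most of the ITAM pathway rose from con to CRLM: 23 of 31 tested were called higher and 1 lower, with a median log2 fold change of 2.22. Cyba, a subunit of the phagocyte NADPH oxidase, rose from 12.8 to 75.7 CPM (log2 fold change 2.52, adjusted p = 0.000474), and Syk, the kinase that docks on the phosphorylated ITAM, by 2.22 in log2 (adjusted p = 0.000304). Lat2, an adaptor, went from 0.307 to 7.42 CPM and Src from 3.66 to 48.6. Lyn, the kinase that phosphorylates both motifs, was at 51.5 and 88.1 CPM (log2 fold change 0.76) and was not called for its size. Tec, a kinase related to Btk, was the 1 that fell, by 1.07. Syk and Tec are outside the naming rule and were chosen after their values were seen.

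Of the inhibitory side, 6 of 11 genes were called higher and 0 lower, with a median log2 fold change of 1.19. Dok1, a docking protein that restrains these pathways, rose from 2.03 to 31.1 CPM (3.84 in log2) and Dok3 from 2.3 to 14.5 (2.59). Csk, the kinase that holds Src kinases inactive, was at 98.5 and 92.4 CPM and the phosphatase Ptpn11 at 147 and 156, neither called. Of Fcer1g's partners and relatives, 9 of 12 rose and 0 fell, with a median of 2.08. Tyrobp, the other common ITAM adaptor of myeloid cells, rose from 15.1 to 70.4 CPM (2.21 in log2, adjusted p = 0.00218), and Clec4n (Dectin-2), a lectin that signals through Fcer1g, from 4.2 to 16.4 CPM (1.94). Clec4e, another such lectin, and Trem1, which signals through Tyrobp, were at 0 in both con samples and at 1.94 and 1.66 CPM in CRLM, both called.

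The receptors of other isotypes and other Fc receptors moved both ways: of 10 tested, 4 rose and 1 fell, with a median of 0.69. Pigr, the carrier of polymeric IgA into bile, fell by 2.39 in log2 (2137 to 751 CPM, adjusted p = 0.00185), and Fcgrt, the neonatal Fc receptor that spares IgG and albumin from breakdown, was at 221 and 125 CPM and was not called. Fcrls, an Fc receptor-like gene, rose from 0.0414 to 35.7 CPM, and Fcrl5 was at 0 in con and 0.581 CPM in CRLM, also called. Of the immunoglobulin constant genes 4 of 12 rose and 0 fell, with a median of 2.17. Of the 4 tested heavy chain genes of IgG, the class that Fc gamma receptors bind, Ighg2b was called higher (0.39 ± 0.2 to 4.38 ± 4.6 CPM, SD), while Ighg1, Ighg2c and Ighg3 were not called (adjusted p = 0.19, 0.0843 and 0.205, edgeR). The other 3 called genes encode chains of IgM and IgD and a light chain: Ighm (7.67 to 34.5 CPM), Iglc2 (0.0856 to 0.74) and, named after its value was seen, Ighd (1.44 in log2). Igkc was at 4.32 and 27.7 CPM with an SD of 43.6 in CRLM and was not called. Of the pentraxins, which also bind Fc gamma receptors, Crp fell by 2.04 in log2 (684 to 293 CPM) and 0 of 3 rose, with a median of -0.14. Apcs was at 128 and 164 CPM.

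Among lineage factors 6 of 10 rose and 2 fell, with a median of 1.02. Spi1 (PU.1) rose from 9.02 to 45.9 CPM (2.30 in log2, adjusted p = 0.000421) and Runx1 from 1.04 to 19.9 CPM, while Cebpa, which hepatocytes also express, fell by 1.92. Cebpb was at 182 and 133 CPM and was not called.

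**Figure D4:**
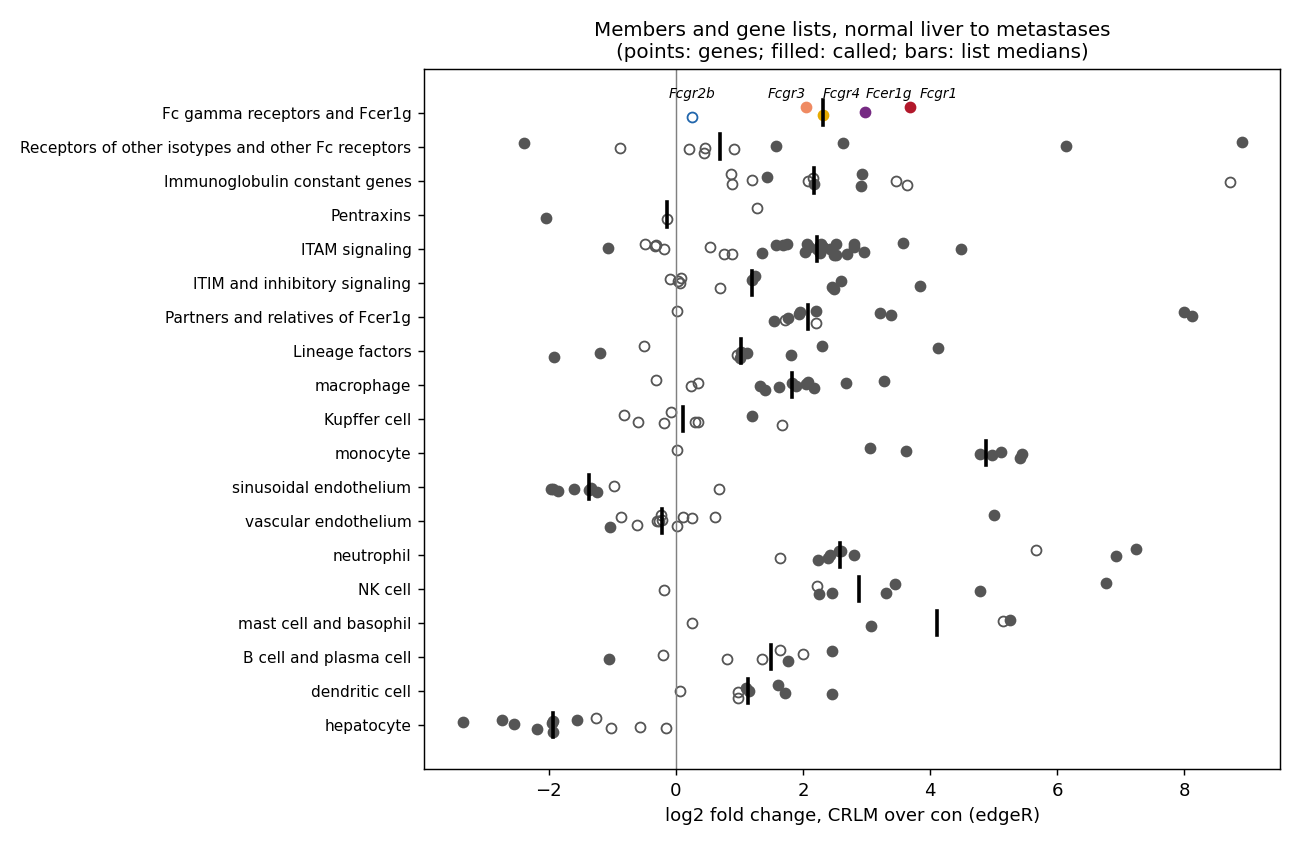
Log2 fold change (edgeR) from normal liver to metastases for the 5 genes, labelled by name, and for each tested gene of the lists below them; each point is a gene, filled where called, and each bar is the median of a list. Fcgr2b sits at 0.26, the other 4 genes between 2.04 and 3.69, beside medians of 2.22 for ITAM signaling and -1.37 for sinusoidal endothelium.

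Some lists of cell type markers rose alongside the receptors and others did not, and their part in the result was not tested. Macrophage markers rose in 10 of 13 genes (median 1.83), Lyz2 from 102 to 670 CPM, C1qb from 77.3 to 340 and Aif1 from 3.1 to 30.7, and their sum was 582 to 843 CPM in con, 1356 in L-con and 3108 to 3152 in Ht. Monocyte markers rose in 7 of 8 (median 4.87), among them Itgam (0.395 to 19.5 CPM), Ly6c2 (0.862 to 37.7) and Plac8 (6.97 to 58.6). Fn1, which hepatocytes also express, was at 1739 and 1782 CPM and was not called. With Fn1 in it the monocyte sum was 1749 to 1757 CPM in con, 1922 to 1982 in Lt and 1523 to 1587 in Ht. Kupffer cell markers rose in 1 of 8 (Folr2, 3.22 to 7.5 CPM, median 0.12), with Cd5l at 137 and 210 CPM and Clec4f at 173 and 185, neither called, and their sum was 527 to 693 CPM in con and 107 to 175 in Ht. Neutrophil markers rose in 8 of 10, with a sum of 3.47 to 5.05 CPM in con and 174 to 193 in Ht. Of these Mmp9, which other cells also express, was at 111 CPM in CRLM, S100a9 rose from 0.561 to 3.95 CPM, and Ngp was at 0 in con and 1.12 CPM in CRLM, also called. Their median was 2.59, or 2.41 with the 2 genes at 0 in con set to the bound that 3 counts allow.

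The other marker lists stood as follows from con to CRLM. NK cell markers rose in 6 of 8 (median 2.88, or 2.36 at the bound), dendritic cell markers in 5 of 8 (median 1.13), and B cell and plasma cell markers rose in 2 and fell in 1 of 8. Mast cell and basophil markers rose in 2 of 4, with a median of 4.10 that became 0.15 at the bound. Vascular endothelium rose in 1 of 12 (Cd34, 3.7 to 128 CPM) and fell in 1 (Tek), with a median of -0.22, and hepatocyte markers fell in 8 of 12 (median -1.94). Hepatocyte markers summed to 170320 to 202802 CPM in con and 3752 to 5519 in Ht.

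Within the tissue series, the genes whose pattern lay nearest to each receptor were found by the root mean square difference of centred log2(CPM + 1) over the 13 samples, among 12944 genes. Nearest to Fcgr1 were Ifi211 (0.15), Ms4a6c (0.16) and Adcy7 (0.18), and nearest to Fcgr3 were C1qb (0.15), Ecscr (0.16) and Fgd2 (0.16). Nearest to Fcgr4 were Hk3 (0.21), Themis2 (0.23) and Fgd2 (0.23), and nearest to Fcer1g were Aif1 (0.16), Lyz2 (0.17) and Cd52 (0.17). Fcgr2b, which varied little, was nearest to Skap2 (0.07), Emc2 (0.10) and Ltv1 (0.10). Among the receptors themselves, Fcgr3 and Fcgr4 were the closest pair (0.33), followed by Fcgr3 and Fcer1g (0.35), and Fcgr2b was 0.82 to 1.35 from the others. These distances are descriptions over samples that share their tissue composition.

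All 5 genes were far higher in the sorted cells than in the sequenced Mt2 tissue. By their Xist and Ddx3y counts, the tissue and sorted libraries came from different animals. On a common scale, Fcgr2b measured 94.9 and 88.2 CPM in Mt2 tissue, 666, 826 and 671 in F4/80+ cells and 602, 553 and 651 in CD11b+ cells. Fcgr1 measured 53.6 and 92.1 CPM in Mt2 tissue, 559, 591 and 641 in F4/80+ cells and 559, 572 and 786 in CD11b+ cells. In both genes, as in Fcgr3, Fcgr4 and Fcer1g, every sorted library lay above both tissue samples, as it did in 33.5% of all genes for F4/80+ cells and 29.4% for CD11b+ cells.

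**Figure D5:**
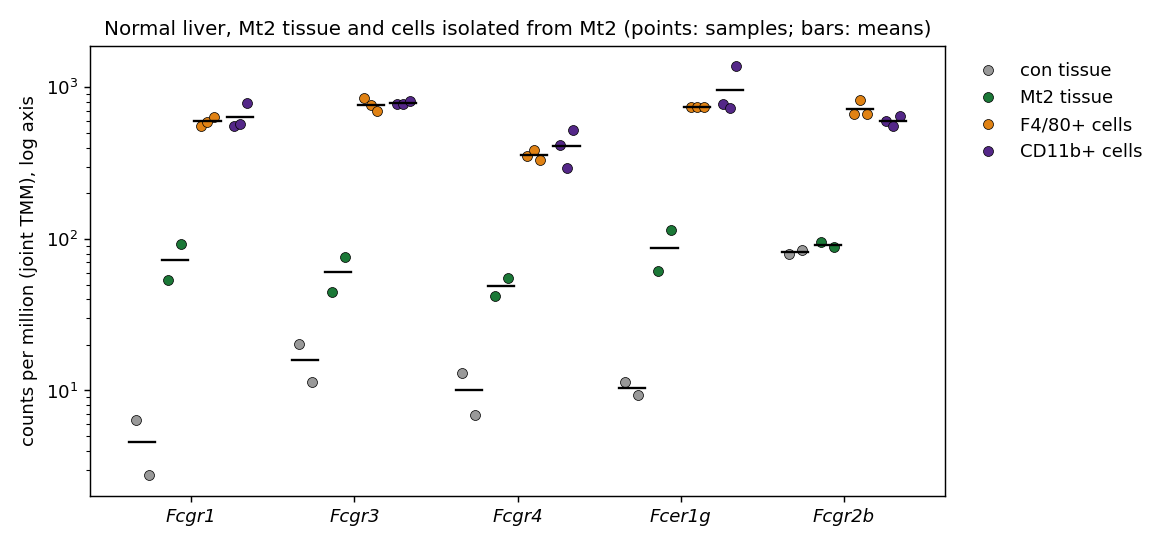
CPM (log axis, all libraries scaled together) of the 5 genes in normal liver, Mt2 tissue, F4/80+ cells and CD11b+ cells; points are samples and bars are group means. Every sorted library lies above both Mt2 samples in all 5 genes (33.5% of all genes for F4/80+ and 29.4% for CD11b+ cells), and Fcgr2b alone has con (79.7 and 84.4 CPM) close to Mt2 (94.9 and 88.2 CPM).

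From Mt2 tissue to F4/80+ cells 5 of 5 genes were called higher by edgeR, beside 17.2% of all genes: Fcgr3 by 3.66 in log2 (SE 0.39, adjusted p = 2.56e-06), Fcer1g by 3.08 (SE 0.43, adjusted p = 3.09e-05), Fcgr1 by 3.03 (SE 0.43, adjusted p = 3.57e-05), Fcgr2b by 2.98 (SE 0.20, adjusted p = 9.96e-08) and Fcgr4 by 2.87 (SE 0.41, adjusted p = 3.99e-05). From Mt2 tissue to CD11b+ cells 5 of 5 were called higher, beside 17.6% of all genes: Fcgr3 by 3.70 (SE 0.39, adjusted p = 2.02e-06), Fcer1g by 3.46 (SE 0.44, adjusted p = 1.16e-05), Fcgr1 by 3.13 (SE 0.43, adjusted p = 2.52e-05), Fcgr4 by 3.07 (SE 0.42, adjusted p = 2.13e-05) and Fcgr2b by 2.72 (SE 0.19, adjusted p = 9.59e-08). Fcgr2b thus rose alongside the activating receptors here, where it had stayed near its con level in the tissue series. Both comparisons use the same 2 tissue samples. Tissue and sorted libraries come from separate count tables. Sex, as said, and any difference between the tables cannot be told apart from the kind of sample. In the F4/80+ comparison the ITAM genes rose in 24 of 31 and fell in 2, those of the inhibitory side rose in 9 of 11 and the partners of Fcer1g in 10 of 12, while the macrophage markers rose in 13 of 13.

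Between the sorted populations 0 of the 5 genes were called, beside 0.0771% of all genes (11 of 14263). Without adjustment 1503 genes had p under 0.05, none of them a member, and DESeq2 called 300, again with 0 members. Fcgr1 measured 608, 637 and 695 CPM in F4/80+ cells and 624, 639 and 893 in CD11b+ cells, Fcgr2b 725, 891 and 727 against 672, 619 and 739, and Fcgr3 921, 820 and 756 against 867, 868 and 919. All 3 overlapped between the populations. Fcgr4 measured 384, 417 and 359 CPM in F4/80+ cells and 463, 327 and 594 in CD11b+ cells, also overlapping. Fcer1g measured 808, 803 and 806 CPM in F4/80+ cells and 870, 820 and 1561 in CD11b+ cells, the only member without overlap, beside 23.3% of all genes, with the high value in CD11b+ 3. On the common scale with tissue Fcer1g overlapped too (742, 745 and 744 CPM against 780, 733 and 1375).

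From CD11b+ to F4/80+ cells the log2 differences were 0.21 for Fcgr2b (95% interval -0.19 to 0.60, adjusted p = 0.602), -0.09 for Fcgr3 (-0.46 to 0.28, adjusted p = 0.805), -0.15 for Fcgr1 (-0.60 to 0.29, adjusted p = 0.72), -0.25 for Fcgr4 (-0.79 to 0.28, adjusted p = 0.632) and -0.43 for Fcer1g (-1.04 to 0.19, adjusted p = 0.527). All intervals but that of Fcer1g leave out a 2-fold difference. Without CD11b+ 3 the value for Fcer1g was -0.07, that for Fcgr4 -0.03 and that for Fcgr1 0.04. Within libraries, the log2 ratio to Fcgr2b was lower in F4/80+ than in CD11b+ cells by 0.34 for Fcgr1, 0.30 for Fcgr3, 0.42 for Fcgr4 and 0.57 for Fcer1g. The exact two-sided permutation p was 0.2 for the 3 receptors and 0.1, the smallest that 3 against 3 allows, for Fcer1g, so this design could not reach 0.05.

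Per kilobase, the order of the members was the same in both populations. F4/80+ cells held 922 CPM per kb of Fcer1g, 479 of Fcgr3, 308 of Fcgr4, 250 of Fcgr1 and 135 of Fcgr2b, and CD11b+ cells held 1240, 510, 367, 278 and 117. Fcgr2b was the lowest of the 4 receptors, with 10.5% to 12.8% of their sum in F4/80+ and 8.66% to 9.59% in CD11b+ cells, and the Ht tissue samples (11% and 9.38%) lay within these ranges. Fcgr1 held 19.6% to 24.1%, Fcgr3 35.9% to 44.9% and Fcgr4 23.4% to 32.1% over both populations.

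The 2 populations were not pure by marker sums. Macrophage markers summed to 23073 to 25551 CPM in F4/80+ and 22267 to 36681 in CD11b+ cells. Kupffer cell markers summed to 783 to 3003 CPM in F4/80+ and 104 to 199 in CD11b+ cells, with Clec4f at 602 and 26.9 CPM on average (adjusted p = 0.0652, not called), and neutrophil markers to 198 to 875 and 1500 to 6218 CPM, with S100a9 at 60.4 and 880. Sinusoidal markers without Stab1 summed to 124 to 239 CPM in F4/80+ and 76.5 to 110 in CD11b+ cells, while Stab1 itself was at 2476 and 2179. No marker list had a gene called by edgeR between the populations. Tyrobp was at 552 CPM in F4/80+ and 844 in CD11b+ cells, not called. The part of these cells in the receptor levels was not tested.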

How the data were processed

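The authors deposited raw read counts per gene for 14 tissue and 6 sorted-cell libraries, not normalized. The submitters' processing notes name CASAVA, HISAT2 2.0.5, featureCounts 1.5.0-p3 and GRCm38 (mm10), and genes are identified as Ensembl genes with lengths. Every entry names a gene, and 0 columns were left unmapped. Members and gene lists were chosen with earlier results of these data known. Counts were tested with edgeR 4.0.16 in R 4.3.3 (TMM scaling, filterByExpr, quasi-likelihood test, Benjamini-Hochberg adjustment over all genes tested), and calls needed an adjusted p of 0.05 or less and a log2 change of 1 or more in size. Tissue, sorted cells and both together were fitted separately, and Ht 1 and Ht 3 were summed. CRLM is the mean of the 5 metastasis groups. Ratios to Fcgr2b used counts per kilobase and exact permutation tests. Patterns were compared on log2(CPM + 1). Genes of each pathway list were named by a rule from con to CRLM: the 2 with the highest level per kilobase and the 2 called with the largest change. The same picks are given for macrophage, Kupffer cell, monocyte, neutrophil and sinusoidal markers, and the other marker lists by counts. Between the sorted cells the picks by level were not all named. The tests were checked on simulated data. At these depths 3 counts correspond to 0.146 to 0.187 CPM, and floors cover counting error only. Alternatives were DESeq2 1.42.0, total-count scaling, other filters, other samples and the replicate block.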

Additional observations from a re-analysis of the deposited data

How the results depend on the processing

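The count of members called from con to CRLM (4), between the sorted cells (0) and from Mt2 tissue to either population (5) was the same under every alternative run (21, 13 and 14 each). The log2 ratios to Fcgr2b, whose test could not pass the threshold, kept their direction in all 104 refits, and leaving out 1 sample at a time gave 2.85 to 4.15 for Fcgr1, 1.34 to 2.25 for Fcgr3, 1.58 to 2.58 for Fcgr4 and 2.5 to 2.86 for Fcer1g from con to CRLM. From con to Lt, leaving out 1 sample gave 0 to 4 members called. From Lt to Ht, where none was called, DESeq2, no filter, only the groups compared, the replicate block, Ht as 3 libraries and Ht 3 left out each called 2, total-count scaling called 3, a 10-count minimum in all libraries called 1, and leaving out 1 sample called 0 to 2. The cause was not tested. In 4 values the direction reversed: Fcgr2b from Lt to Ht with total-count scaling (0.70), Fcgr4 from Lt to Ht when Ht 2 was left out (range over left-out samples -0.06 to 0.58), and between sorted cells Fcgr1 when CD11b+ 3 was left out (range -0.25 to 0.04) and Fcgr3 with total-count scaling (0.01). Of 445 refits of member fold changes, 415 kept direction and call.

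Same-numbered samples did not deviate together (r from -0.121 to 0.093), so the numbers were not taken to pair them. With the replicate block, members called were 4 from con to CRLM, 4 from con to Lt, 2 from Lt to Ht, 0 between sorted cells and 5 in each tissue comparison. For con and Lt the correlation was -0.111, and a crossed pairing, chosen after seeing the data, called 3.

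Over all genes, counts moved by more than 1.5 times as follows. From con to Lt, 2177 became 1154 with the 10-count minimum and 735 to 2284 with 1 sample left out. From Lt to Ht, 5480 became 8297 with total-count scaling, in which 74.9% were higher against 36.6%, and 2786 to 5960 with 1 sample left out. From con to CRLM, 6091 became 3802 with the 10-count minimum and 9424 with no threshold on the fold change, and total-count scaling gave 83% higher against 59%. Between sorted cells, 11 became 300 with DESeq2, 6 with total-count scaling, 5 with the 10-count minimum, 242 with no filter, 169 in a joint fit with tissue, 78 with the replicate block and 0 to 136 with 1 library left out. From Mt2 tissue, 7793 became 3742 for F4/80+ and 8082 became 3870 for CD11b+ cells with the 10-count minimum.

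These limits bear on every value: most groups had 2 samples, con among them, the metastasis groups differ in day and tumor content together, and bulk tissue mixes cell types.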
